A study of Mus musculus with 9 samples.

Results

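The genes of the ATF4-CHOP branch of the integrated stress response were followed in MC38 cells, a mouse colon carcinoma line, after a copper-cystine nanodrug. The set held 10 genes that were taken by symbol from a table of 16509 genes. All 10 had enough counts to be tested, as had 11949 genes in all. RNA was sequenced from 9 libraries in 3 groups of 3, and the labels and methods give neither dose nor exposure time for them. Ctrl cells received vehicle, which the labels call DMSO and the study's methods PBS. Cu-Cys cells received copper chloride and cystine. Cadict cells received the nanodrug, a copper-cystine coordination product that also carries glucose oxidase (GOx), an enzyme that turns glucose into gluconic acid and hydrogen peroxide, and DSPE-PEG-GE11, a lipid-anchored peptide that binds EGFR. Cadict cells therefore differed from Cu-Cys cells in GOx, in the peptide and in the particle itself, and these cannot be told apart here. The study's methods say in general that its cell experiments were repeated independently, while the labels do not say whether the 3 libraries of a group came from separate cultures. If they did not, p-values measure only the spread between these libraries, which may be technical.

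In the integrated stress response, kinases that sense amino acid shortage, unfolded protein, viral RNA or heme deficiency phosphorylate the translation factor eIF2α. Most protein synthesis then slows, while the Atf4 mRNA is translated better, so that ATF4 protein can rise with little change of its mRNA. ATF4, often together with other bZIP factors, turns on genes for amino acid supply and redox balance, further transcription factors such as CHOP (the product of Ddit3) and ATF3, and feedback genes that bring translation back.

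Promoter sequence shows which of the 10 genes carry a textbook binding motif of these factors close to their start. The 250 bases before the RefSeq start of each gene (GRCm38.p6, all 10 genes matched) were searched on both strands for the core of the C/EBP-ATF element, TGATGNAA, at which ATF4 and C/EBP proteins bind as pairs, and for the cAMP response element TGACGTCA, a site of ATF and CREB factors. The C/EBP-ATF core was found in 3 of the 10 promoters and in 3.45% of 32851 mouse promoters of this length. The cAMP response element was found in 1 of the 10 and in 1.55% of all. The 4 promoters with a match are given from 5′ to 3′ on the strand of the gene, with the match in capitals. Each C/EBP-ATF match reads TTGCATCA on the gene's strand, the reverse complement of the core.
Atf3, chr1:191183334-191183583, minus strand: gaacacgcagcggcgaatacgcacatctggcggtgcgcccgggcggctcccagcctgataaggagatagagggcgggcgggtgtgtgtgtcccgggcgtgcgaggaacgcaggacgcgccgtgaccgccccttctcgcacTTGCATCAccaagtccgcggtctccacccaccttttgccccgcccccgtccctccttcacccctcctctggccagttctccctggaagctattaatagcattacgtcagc
Nupr1, chr7:126625471-126625720, minus strand: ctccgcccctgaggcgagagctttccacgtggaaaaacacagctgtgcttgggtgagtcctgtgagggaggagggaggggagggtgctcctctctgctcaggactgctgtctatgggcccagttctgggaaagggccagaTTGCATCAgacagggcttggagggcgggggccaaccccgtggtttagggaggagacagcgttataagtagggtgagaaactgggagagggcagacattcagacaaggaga
Chac1, chr2:119350992-119351241, plus strand: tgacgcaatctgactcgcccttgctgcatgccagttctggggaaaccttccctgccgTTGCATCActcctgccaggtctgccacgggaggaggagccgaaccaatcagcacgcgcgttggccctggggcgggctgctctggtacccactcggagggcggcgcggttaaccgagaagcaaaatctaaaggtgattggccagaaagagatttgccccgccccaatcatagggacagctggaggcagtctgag
Ppp1r15a, chr7:45526269-45526518, minus strand: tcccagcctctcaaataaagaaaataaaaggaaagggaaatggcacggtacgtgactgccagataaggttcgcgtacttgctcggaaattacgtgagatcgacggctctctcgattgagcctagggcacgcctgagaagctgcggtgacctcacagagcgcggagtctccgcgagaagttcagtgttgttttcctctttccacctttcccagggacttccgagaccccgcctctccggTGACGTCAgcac
The match lay 103 to 110 bases before the start in Atf3 and in Nupr1, 186 to 193 bases before it in Chac1 and 5 to 12 bases before it in Ppp1r15a. Of these 4 genes, Atf3, Ppp1r15a and Nupr1 changed strongly under Cadict and Chac1 did not, as the values that follow show. Among the genes without a match, Sesn2 (10.5-fold), Ddit3 (6.02-fold) and Cebpb (3.52-fold) also rose by TMM. Atf4, Cebpg and Trib3, likewise without a match, stayed under 2-fold. For Trib3 the RefSeq start was not found near the beginning of a GENCODE transcript, so its window is less certain. A link between the motifs and the changes was not tested.

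The libraries held between 17905771 and 18293055.9 counts. The 10 genes together took 0.0897, 0.0935 and 0.0903% of the counts in the 3 Ctrl libraries, 0.0906, 0.0886 and 0.0916% in Cu-Cys and 0.293, 0.299 and 0.284% in Cadict, where 3 counts, the limit that a count of 0 allows, corresponded to at most 0.261 CPM. Cadict libraries were also more dominated by few genes, since the 100 most abundant took 29.8 to 31.1% of their counts against 17.2 to 18.2% elsewhere. The way of scaling mattered for several genes. TMM, which scales by the bulk of genes, gave factors of 1.26 to 1.27 in Ctrl, 1.21 in Cu-Cys and 0.64 to 0.665 in Cadict. Scaling by library totals instead lowered the Cadict against Ctrl change of the median gene by 0.95 on the log2 scale and TPM lowered it by 1.00, whereas DESeq2 size factors raised it by 0.12. Values are given as TMM-scaled CPM (counts brought to a common library size) unless stated otherwise, and the other scalings are given wherever a direction turns. No spike-in is named, so RNA per cell was not measured. In bulk RNA a change in all cells and a change in some of them, or in the number of living cells, cannot be told apart. Against the label, epithelial markers were nearly absent, with Epcam at 0 in all Ctrl and Cu-Cys libraries. Of 9 listed epithelial markers, the 7 with values summed to 4.83 to 6.86 TPM in Ctrl and 11.6 to 13.5 TPM in Cadict. The 6 fibroblast markers, led by Col1a2 and Col3a1, summed to 407 to 444 TPM in Ctrl, 183 to 195 in Cu-Cys and 24.9 to 31.6 in Cadict, with Lum at 0 to 0.0167 TPM on average. Leukocyte markers, of which 5 of 10 listed had values, summed to at most 1.37 TPM and endothelial markers to at most 1.41 TPM in any library. The part of these marker shifts in the results was not tested.

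Under Cadict the response was uneven. Atf3 and Ppp1r15a rose by the largest factors, Sesn2, Nupr1 and Ddit3 rose several-fold, Cebpb rose less, and Atf4, Cebpg, Chac1 and Trib3 moved by less than 2-fold in a direction that depended on the scaling. The study's threshold was 2-fold or more with an adjusted p no greater than 0.001, which its methods pair with DESeq. Applied here with edgeR's quasi-likelihood test, it called 6 of the 10 genes higher and 0 lower. Of all tested genes it called 20.7% higher and 27.1% lower. With the p limit alone, set at 0.05, all 10 were higher by TMM, against 40.6% of all genes higher and 47.1% lower. The Ctrl and Cadict libraries did not overlap for any of the 10 genes, but neither did they for 87.5% of all genes. The median log2 fold change was 2.20 for the 10 genes and −0.13 for all genes tested.

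**Figure D1:**
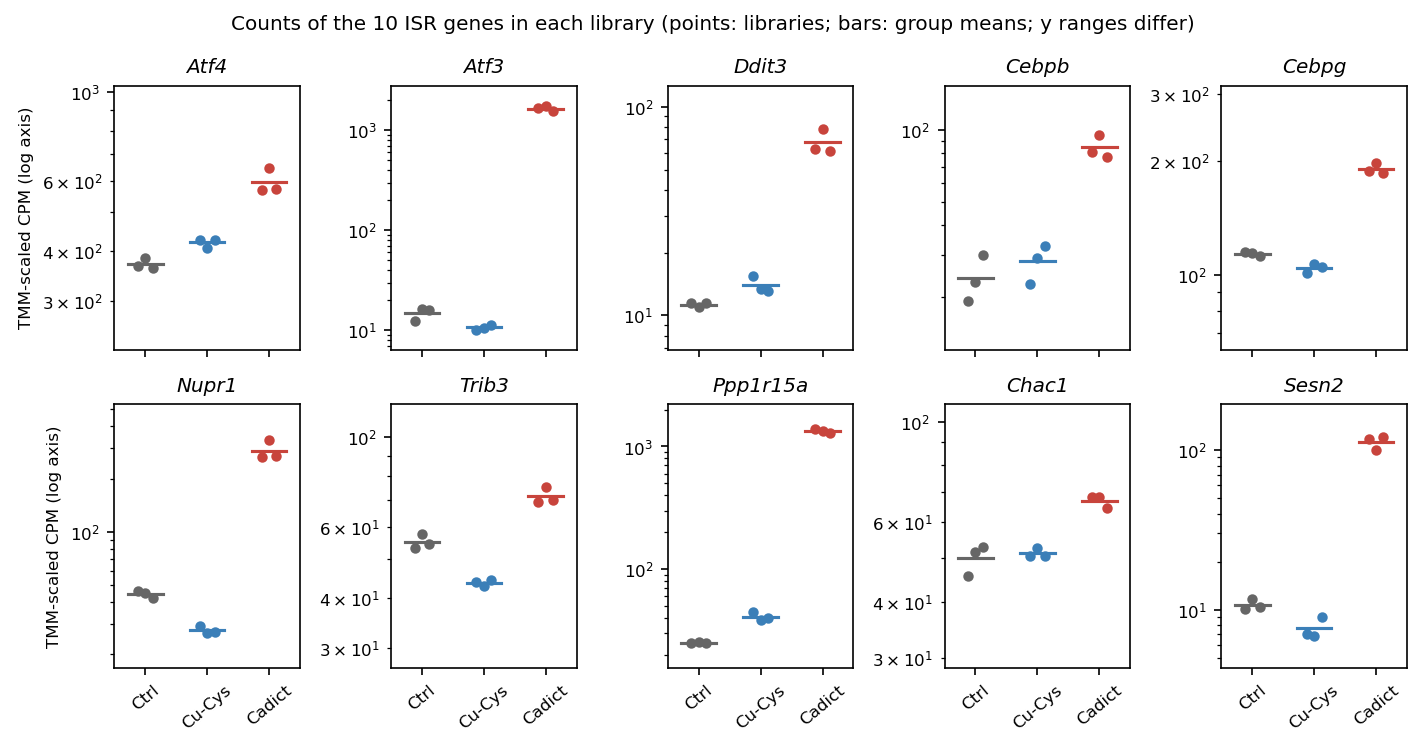
TMM-scaled CPM (log axis, ranges differ between panels) of the 10 integrated stress response (ISR) genes in each of the 9 libraries; points are libraries and bars are means of 3. Cadict libraries lie above Ctrl for all 10 genes on this scale, from a mean of 1651 against 14.8 CPM for Atf3 to 71.5 against 55.2 CPM for Trib3.

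Atf4 encodes the transcription factor at the head of the branch. Its CPM were 367, 385 and 362 in Ctrl, 427, 408 and 426 in Cu-Cys and 568, 646 and 570 in Cadict. The 3 groups did not overlap on this scale, and Cadict replicate 2 stood highest. Against Ctrl the log2 fold change in Cadict was 0.68 ± 0.056 (SE, n = 3 against 3; edgeR adjusted p = 1.23e-08) by TMM, but it was −0.28 by library totals and −0.61 by TPM. Per length, Atf4 stood at 617 ± 22.1 TPM in Ctrl, 634 ± 25.4 in Cu-Cys and 403 ± 12.2 in Cadict (mean ± SD, n = 3). Atf4 mRNA thus took a smaller share of the transcripts in Cadict libraries and a larger one relative to the bulk of genes.

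Atf3 encodes a bZIP repressor and activator that many stresses induce. It was counted at 12.3, 16.1 and 16.0 CPM in Ctrl, 10.2, 10.6 and 11.2 in Cu-Cys and 1664, 1734 and 1554 in Cadict. Every Cadict library was far above all others, and the Cu-Cys libraries were the lowest. The rise in Cadict was 111-fold, or 6.80 ± 0.093 on the log2 scale (edgeR adjusted p = 3.21e-17), which ranked 48 among the 11949 tested genes. Library totals gave 5.85 and TPM 5.43. In raw counts this was 285, 373 and 366 reads in Ctrl against 19579, 19899 and 18509 in Cadict.

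Ddit3 encodes CHOP, the bZIP factor linked to cell death under prolonged endoplasmic reticulum stress. The Ctrl libraries gave 11.4, 10.9 and 11.4 CPM, the Cu-Cys libraries 15.4, 13.4 and 13 and the Cadict libraries 62.9, 78.8 and 61.7. Cadict was higher than both other groups in every library, by 6.02-fold against Ctrl (log2 2.59 ± 0.097, edgeR adjusted p = 8.00e-13). The change stayed above 2-fold by library totals (1.63) and by TPM (1.34). Exons of Mars1 and Gm4189 on the opposite strand overlap 4.73% of the Ddit3 exon bases in the GENCODE annotation, and whether counting used strand is not stated. Mars1 itself went from 121 to 177 CPM.

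Cebpb and Cebpg encode C/EBP factors that can pair with ATF4. Cebpb measured 19.1, 23.1 and 30.0 CPM in Ctrl, 22.7, 29.0 and 32.8 in Cu-Cys and 81.2, 95.7 and 76.9 in Cadict. Its Ctrl and Cu-Cys libraries overlapped and spread more than those of the other genes, while Cadict lay above both. The log2 fold change was 1.81 ± 0.14 by TMM (edgeR adjusted p = 6.67e-09), 0.86 by library totals and 0.51 by TPM, so that it passed the 2-fold limit by TMM and DESeq2 size factors only. Tmem189, on the opposite strand, overlaps 20.7% of the Cebpb exon bases, and it went from 35 to 25.5 CPM. Cebpg had 115, 114 and 112 CPM in Ctrl, 101, 106 and 104 in Cu-Cys and 187, 197 and 185 in Cadict. Its 3 groups were narrow and separate, with Cu-Cys lowest and Cadict highest. The Cadict against Ctrl change was 0.74 ± 0.047 by TMM (edgeR adjusted p = 4.41e-10), but −0.21 by library totals and −0.55 by TPM.

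Nupr1 encodes a small stress-induced chromatin protein. Its CPM ran 45.8, 44.8 and 42.0 in Ctrl, 29.2, 26.7 and 27.0 in Cu-Cys and 267, 333 and 270 in Cadict. Cu-Cys libraries were below Ctrl and Cadict libraries above it, without overlap. Nupr1 rose 6.56-fold under Cadict (log2 2.71 ± 0.080, edgeR adjusted p = 4.84e-14), and by 1.76 in library totals and 1.35 in TPM. Of all 50-base stretches of its annotated transcripts, 0.686% also occur in another gene.

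Ppp1r15a encodes GADD34, the phosphatase subunit that removes the phosphate from eIF2α and so ends the translation block. It was counted at 25.0, 25.4 and 24.7 CPM in Ctrl, 44.3, 38.1 and 39.5 in Cu-Cys and 1381, 1348 and 1294 in Cadict. Its groups were ordered Ctrl, Cu-Cys, Cadict, with very close replicates and wide gaps. The rise under Cadict was 53.5-fold (log2 5.74 ± 0.068, edgeR adjusted p = 9.45e-18), rank 78 of all tested genes, and remained at 4.79 by library totals and 4.38 by TPM. Its constitutive relative Ppp1r15b went from 225 to 615 CPM, a log2 change of 1.45 by TMM, 0.50 by library totals and 0.14 by TPM.

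Sesn2 encodes sestrin 2, a leucine-binding inhibitor of the growth kinase mTORC1. The Ctrl libraries gave 10.1, 11.6 and 10.4 CPM, the Cu-Cys libraries 7.06, 6.86 and 8.98 and the Cadict libraries 116, 100.2 and 121. The order was Cu-Cys, Ctrl, Cadict, without overlap. Sesn2 was 10.5-fold higher in Cadict than in Ctrl (log2 3.39 ± 0.095, edgeR adjusted p = 2.82e-14), with 2.44 by library totals and 1.98 by TPM.

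Trib3, a pseudokinase that ATF4 and CHOP induce and that holds ATF4 in check, and Chac1, an enzyme that breaks down glutathione, are often used as markers of this branch. Trib3 had 53.3, 57.7 and 54.5 CPM in Ctrl, 43.7, 42.8 and 44.4 in Cu-Cys and 69.0, 75.4 and 70.0 in Cadict. Chac1 had 45.6, 51.5 and 52.8 CPM in Ctrl, 50.5, 52.5 and 50.5 in Cu-Cys and 68.2, 68.1 and 64.3 in Cadict. Both were highest in Cadict on this scale, and Chac1 did not separate Ctrl from Cu-Cys. The Cadict against Ctrl log2 fold changes were 0.37 ± 0.057 for Trib3 (edgeR adjusted p = 1.42e-05) and 0.42 ± 0.063 for Chac1 (edgeR adjusted p = 1.27e-05) by TMM, but both fell by library totals (−0.58 and −0.53) and by TPM (−0.92 and −0.88). In deposited TPM, Trib3 stood at 68.4 ± 2.35 in Ctrl and 35.8 ± 2.08 in Cadict, and Chac1 at 86.1 ± 5.30 and 46.4 ± 3.53 (mean ± SD, n = 3). Of all tested genes, 80.0% had a larger absolute TMM change than Trib3 and 77.7% a larger one than Chac1.

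**Figure D2:**
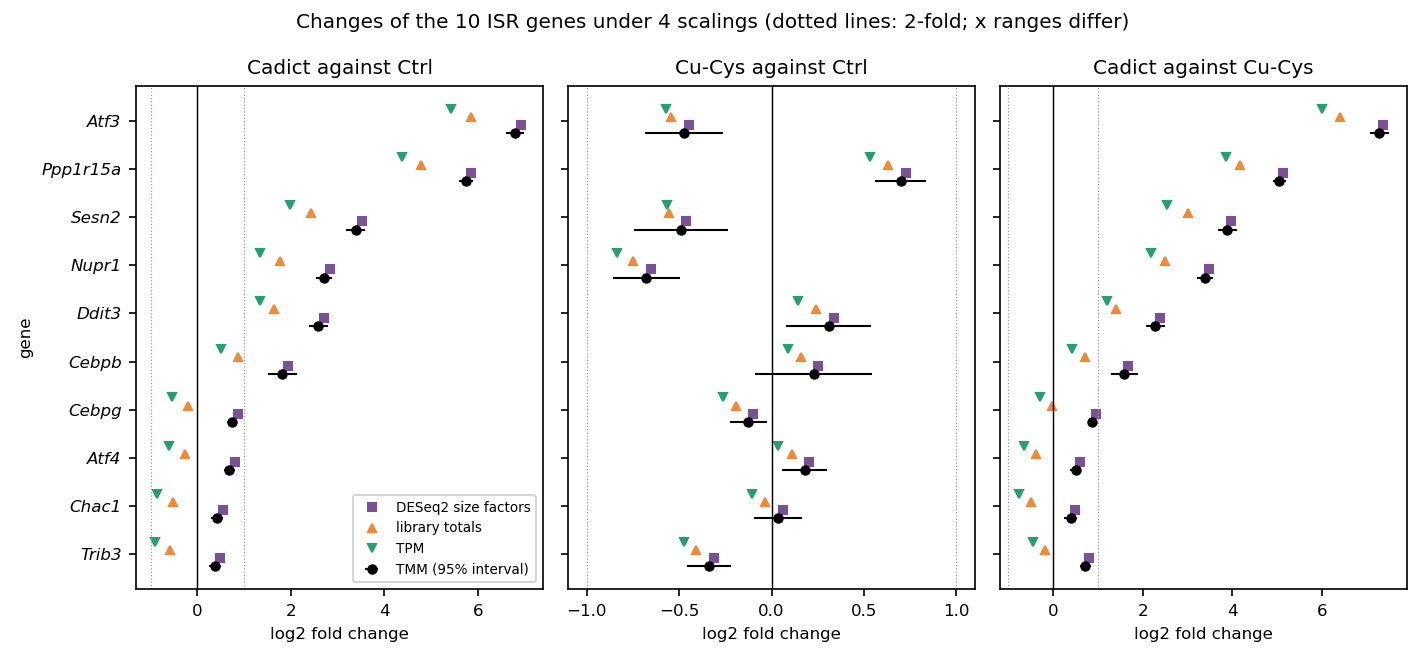
Log2 fold changes of the 10 genes in the 3 comparisons by TMM (black, with 95% intervals), DESeq2 size factors, library totals and TPM; dotted lines mark 2-fold and the x ranges differ. In Cadict against Ctrl, Atf3, Ppp1r15a, Sesn2, Nupr1, Ddit3 and Cebpb stay right of 0 under all 4 scalings, whereas Cebpg, Atf4, Chac1 and Trib3 cross it.

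A ratio of 2 genes within a library is free of the scaling. Taken as a percentage of the Atf4 count of the same library, Atf3 went from 3.36, 4.19 and 4.41% in Ctrl to 293, 268 and 272% in Cadict, and Ppp1r15a from 6.83, 6.58 and 6.83% to 243, 209 and 227%. Ddit3 went from 3.11, 2.83 and 3.15% to 11.1, 12.2 and 10.8%, and Nupr1 from 12.5, 11.6 and 11.6% to 47.0, 51.5 and 47.3%. These 4 genes therefore gained on Atf4 in every Cadict library. Trib3 moved the other way, from 14.5, 15.0 and 15.0% in Ctrl to 12.1, 11.7 and 12.3% in Cadict. On the log2 scale the mean change of the ratio was 6.13 for Atf3, 5.06 for Ppp1r15a, 2.71 for Sesn2, 2.03 for Nupr1, 1.90 for Ddit3, 1.16 for Cebpb, 0.065 for Cebpg, −0.25 for Chac1 and −0.30 for Trib3. The 10 genes did not move in proportion to the Atf4 mRNA.

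**Figure D3:**
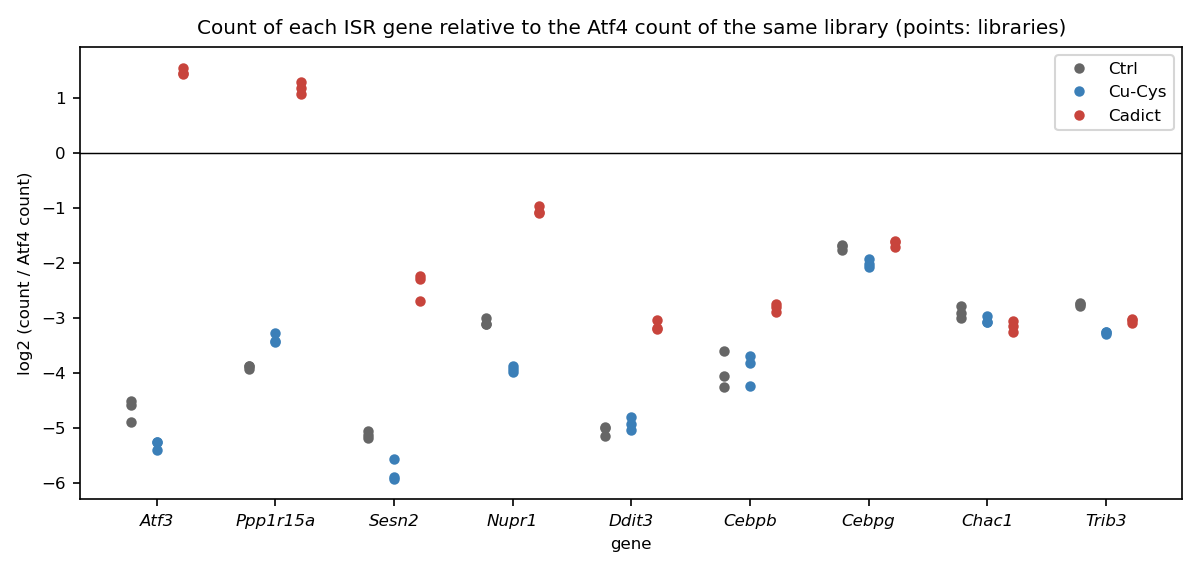
Log2 ratio of each gene's count to the Atf4 count of the same library; points are libraries, coloured by group, and 0 marks a count equal to that of Atf4. Atf3 and Ppp1r15a pass above 0 in Cadict only, while Chac1 and Trib3 lie slightly lower in Cadict than in Ctrl.

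Cu-Cys alone changed these genes little and in both directions. At the study's threshold 0 of the 10 genes were called by edgeR, and 0 by DESeq2, against 0.167% of all tested genes called higher and 1.47% lower. With adjusted p limited to 0.05, 3 genes rose (Ppp1r15a, Ddit3 and Atf4) and 5 fell (Nupr1, Sesn2, Atf3, Trib3 and Cebpg), against 22.6% of all genes higher and 22.4% lower, and the same 8 had an unadjusted p under 0.05. The libraries of the 2 groups did not overlap for these 8 genes, as for 61.2% of all genes. The median was −0.046 for the 10 genes and 0.0067 for all.

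Ppp1r15a, the eIF2α phosphatase subunit, showed the largest rise in Cu-Cys, 0.70 ± 0.064 on the log2 scale (edgeR adjusted p = 1.10e-06), and it rose under all scalings (0.53 by TPM). Ddit3 differed by 0.31 ± 0.11 (adjusted p = 0.0295) and Atf4 by 0.18 ± 0.056 (adjusted p = 0.0181), both by edgeR, and neither passed by library totals (adjusted p = 0.0646 and 0.105) or by TPM (0.146 and 0.626). Nupr1 fell by 0.68, Sesn2 by 0.49, Atf3 by 0.47 and Trib3 by 0.34 on the log2 scale (edgeR adjusted p = 1.88e-05, 0.00385, 0.0014 and 0.000224), and these 4 fell under every scaling. Cebpg fell by 0.13 (edgeR adjusted p = 0.041), which did not pass with DESeq2 size factors (adjusted p = 0.0996) and passed as lower by library totals (−0.19, adjusted p = 0.00423), FPKM (−0.19, 0.00479) and TPM (−0.26, 0.0102). Cebpb and Chac1 did not pass, with log2 differences of 0.23 (95% interval −0.089 to 0.54) and 0.034 (−0.097 to 0.17). Thus Atf3, Nupr1 and Sesn2, which rose strongly in Cadict, were below Ctrl in Cu-Cys.

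Cadict against Cu-Cys compares cells that both received copper and cystine. Here 6 of the 10 genes were called higher and 0 lower, against 18.6% of all tested genes called higher and 23.6% lower. All 10 passed the adjusted p of 0.05 as higher by TMM (40.3% of all higher, 45.6% lower) and did not overlap, as 85.0% of all genes did not. The log2 fold changes were 7.27 ± 0.097 for Atf3 (155-fold), 5.04 ± 0.065 for Ppp1r15a (33.0-fold), 3.88 ± 0.10 for Sesn2 (14.7-fold), 3.39 ± 0.084 for Nupr1 (10.5-fold), 2.28 ± 0.095 for Ddit3 (4.86-fold) and 1.59 ± 0.14 for Cebpb (3.00-fold). The remaining 4 were Cebpg (0.87), Trib3 (0.71), Atf4 (0.50) and Chac1 (0.39), which turned to −0.017, −0.17, −0.38 and −0.50 by library totals. Cebpb stood at 0.70 by library totals, 0.68 by FPKM and 0.42 by TPM, under 2-fold, so that 5 of the 10 genes were called by these scalings. This comparison shares its Cadict libraries with Cadict against Ctrl, so the 2 are not independent. The median was 1.93 for the 10 genes and −0.099 for all.

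The order of the 10 genes by TPM, a level per transcript length, also changed. In Ctrl it was Atf4 (617), Nupr1 (321), Chac1 (86.1), Trib3 (68.4), Cebpg (55.3), Cebpb (43.2), Ddit3 (37.5), Ppp1r15a (26.7), Atf3 (19.2) and Sesn2 (9.81 TPM). Only Cebpb and Ddit3 were neighbours whose libraries overlapped in Ctrl. In Cu-Cys the order was the same, and the ranges of neighbours overlapped from Cebpg through Cebpb and Ddit3 to Ppp1r15a (39.2 TPM). In Cadict it read Atf3 (863), Nupr1 (816), Ppp1r15a (578), Atf4 (403), Ddit3 (96.7), Cebpb (60.9), Chac1 (46.4), Sesn2 (42.1), Cebpg (37.6) and Trib3 (35.8 TPM). There Atf3 overlapped with Nupr1, and the last 4 overlapped each with the next. Atf3 and Ppp1r15a had come from near the bottom to the top, while Trib3 was lowest.

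**Figure D4:**
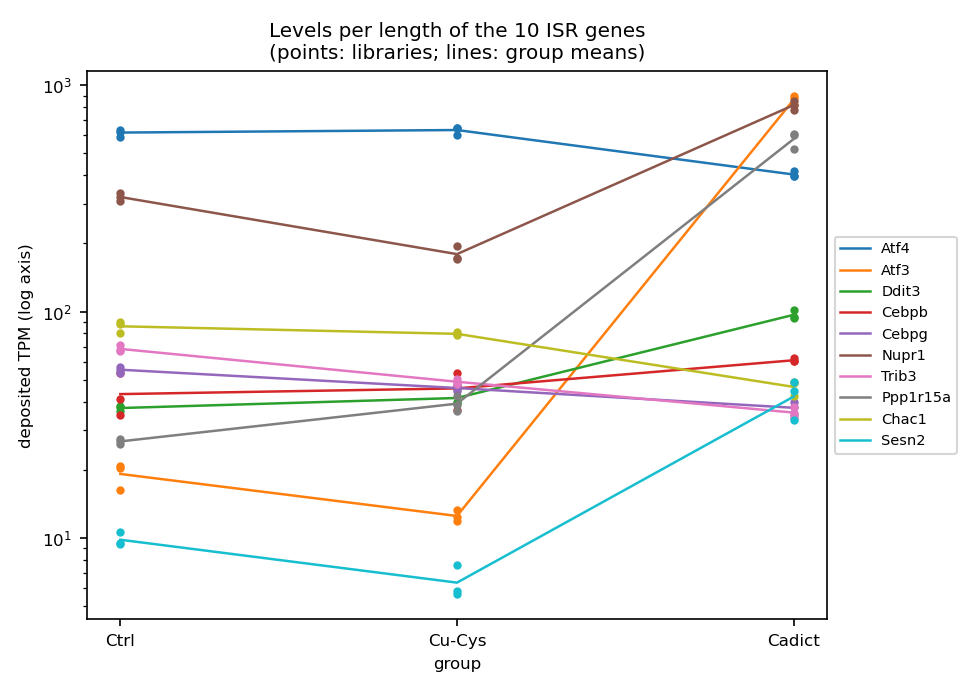
Deposited TPM (log axis) of the 10 genes in Ctrl, Cu-Cys and Cadict; points are libraries and lines join the means of 3. Atf3, Ppp1r15a and Sesn2 climb in Cadict, and Atf4, Chac1, Cebpg and Trib3 descend.

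Genes that ATF4 is known to induce rose in large number. Many of those listed serve amino acid supply and redox balance, while others, such as Gdf15, Fgf21 and Ddit4, do not. Atf5 and Jdp2 are also in the list of paralogs below. Of 38 listed genes, 30 were called higher and 0 lower in Cadict against Ctrl by TMM, beside 20.7% and 27.1% of all tested genes. At the limit of 0.05, 36 rose and 2 fell (Pck2 and Slc7a3), beside 40.6% and 47.1% of all. Their median log2 fold change was 1.86, against −0.13 for all genes. By library totals 30 still rose and 4 fell, with 18 called higher and 2 lower. On that scale 6976 of all 11949 tested genes were called, 11.9% of them higher. The list median was 0.91, against −1.08 for all tested genes. By TPM 25 rose and 8 fell, with 14 called higher and 1 lower. On the TPM scale 6864 of all tested genes were called, 5.67% of them higher. The list median by TPM was 0.55, against −1.13 for all tested genes. Gdf15, a secreted stress cytokine, had 2.25, 2.08 and 2.62 CPM in Ctrl and 105, 110 and 102 in Cadict (log2 5.51 by TMM, 4.56 by library totals). Slc6a9, a glycine transporter, had 28.9, 28.4 and 26.7 CPM in Ctrl and 450, 464 and 476 in Cadict (4.05 and 3.09). Cth, the transsulfuration enzyme that makes cysteine, had 1.3, 1.9 and 2.27 CPM in Ctrl and 30.9, 29.0 and 30.3 in Cadict (4.04 and 3.09). All 3 were separate from Ctrl in every Cadict library. Of the 10 aminoacyl-tRNA synthetase genes in the list, a subgroup picked after its values were seen, 10 rose by TMM, with log2 changes from 0.55 to 2.97, and 9 rose and 1 fell by library totals. The exception was Mars1. Of the 7 amino acid transporters, picked likewise, 6 rose and 1 fell both by TMM and by library totals, while 4 rose and 1 fell by TPM. The transporter that fell by TMM was Slc7a3, at 0.98 CPM in Ctrl and 0.51 in Cadict, close to the limit of counting. In Cu-Cys 0 of the 38 genes were called by edgeR, beside 0.167% of all genes called higher and 1.47% lower. At the limit of 0.05, 17 rose and 7 fell by TMM, beside 22.6% and 22.4% of all. By library totals 15 rose and 7 fell, but by TPM 4 rose and 7 fell. The list median was 0.13 by TMM and −0.018 by TPM, against 0.0067 and −0.12 for all tested genes.

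Genes of the machinery upstream of ATF4 moved in both directions. The list of 23 genes held eIF2α kinases, eIF2, its exchange factor eIF2B, its phosphatases and regulators such as Gcn1, Impact, Oma1 and Nck2. Of the 23 genes, 13 rose and 10 fell by TMM in Cadict (median 0.33), beside 40.6% and 47.1% of all genes. In each direction 7 were called, beside 20.7% higher and 27.1% lower of all. Among these calls Impact was higher, and Gcn1, Oma1 and Nck2 were lower. By library totals 7 rose and 15 fell (median −0.62, against −1.08 for all tested genes on that scale). The 4 kinase genes Eif2ak1, Eif2ak2, Eif2ak3 and Eif2ak4, a subgroup picked after its values were seen, all fell, with log2 changes from −1.65 to −0.76 by TMM, −2.60 to −1.71 by library totals and −2.45 to −1.96 by TPM. Eif2s2, the β subunit of eIF2, rose from 408 to 1998 CPM (2.29 by TMM, 1.34 by library totals). Eif2b5, the catalytic subunit of eIF2B, fell by 2.1 on the log2 scale and Nck2, an adaptor protein, fell by 3.08. Transcript levels do not report kinase activity, which was not measured here.

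Of 16 listed paralogs of the 10 genes, 12 were tested. By TMM 5 rose and 6 fell in Cadict, shares close to the 40.6% and 47.1% of all genes (2 rose and 9 fell by library totals, medians −0.24 and −1.20). The medians of all tested genes were −0.13 by TMM and −1.08 by library totals. Trib1 rose from 24.8 to 81.4 CPM (log2 1.71), whereas Trib2 fell from 43.7 to 4.49 CPM (−3.28), so that the tribbles family changed in both directions around Trib3. Of 10 other ATF and CREB factors tested, 7 rose and 3 fell by TMM, beside the same 40.6% and 47.1%, but 2 rose and 7 fell by library totals (medians 0.65 and −0.31). Atf6, the endoplasmic reticulum sensor, rose by 2.24 (1.29 by library totals), Creb3 rose by 1.06 by TMM and stood at 0.10 by library totals and −0.26 by TPM, and Creb1 fell by 0.93.

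Of 10 genes linked to CHOP in cell death and protein oxidation, which include both targets that CHOP induces and Bcl2, which it represses, 3 rose and 6 fell by TMM (1 and 9 by library totals, medians −0.53 and −1.48), beside 40.6% and 47.1% of all genes by TMM. Pmaip1, which encodes the pro-apoptotic NOXA, rose 6.54-fold, from 46.8, 47.9 and 47.4 CPM in Ctrl to 310.2, 301.5 and 317.9 in Cadict, and stayed higher by library totals (1.76). Bcl2, an anti-apoptotic gene, fell by 1.95 and Bid, a pro-apoptotic gene, by 1.03. Of 18 tested genes of the ATF6 and XBP1 arm of the unfolded protein response, 6 rose and 10 fell by TMM, near the same shares of all genes. By library totals 3 rose and 14 fell (medians −0.24 by TMM and −1.19 by library totals). The medians of all tested genes on these 2 scales were −0.13 and −1.08. Dnajb9, an endoplasmic reticulum co-chaperone, rose from 11.4 to 96.9 CPM (3.09, or 2.13 by library totals), while Sdf2l1 (−2.29) and Pdia4 (−1.79), which assist folding in the same compartment, fell. In Cu-Cys, edgeR called 0 genes in each of these lists, beside only 0.167% of all genes called higher and 1.47% lower.

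**Figure D5:**
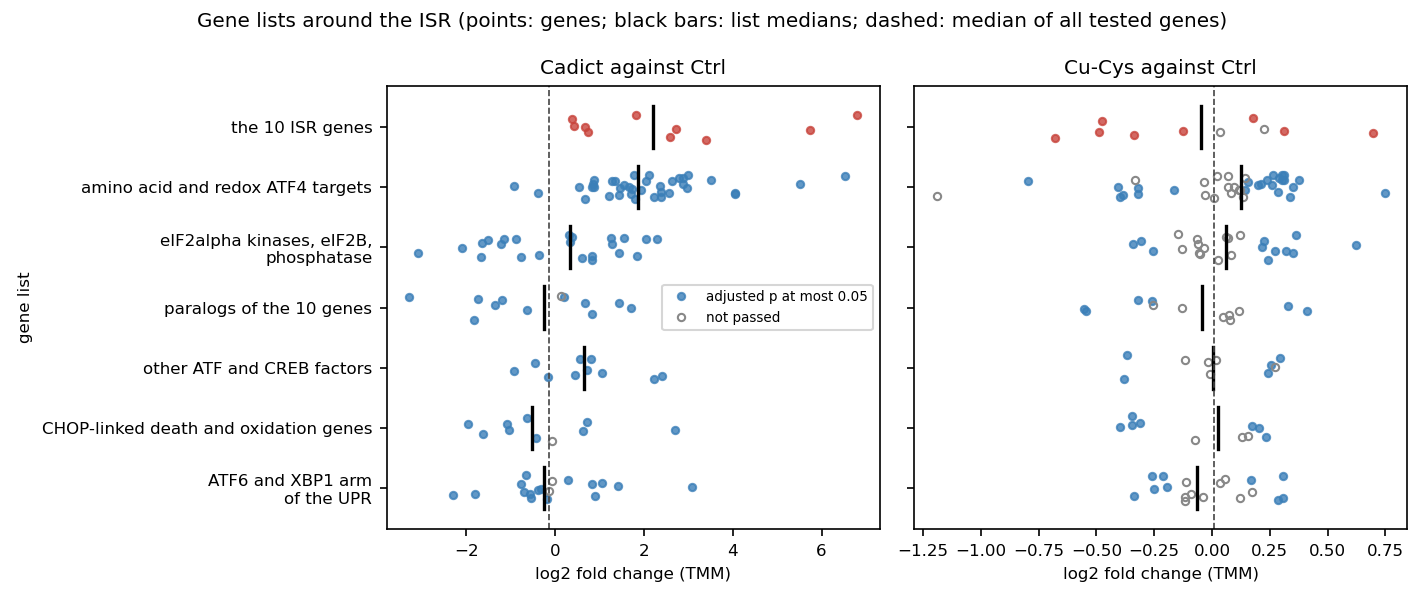
Log2 fold changes (TMM) of the 10 ISR genes and of 6 gene lists in Cadict and in Cu-Cys against Ctrl; points are genes, filled where they rose or fell, black bars are list medians and the dashed line is the median of all tested genes. The listed ATF4 targets, many of them for amino acid supply and redox balance, centre on 1.86 in Cadict, the other lists between −0.53 and 0.65.

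Similarity of pattern was measured as the root mean square distance between centred log2 CPM over the 9 libraries, among 8547 genes. The genes closest to Atf4 were Nap1l4 (0.033), Arhgdia (0.035) and Cdc37 (0.041). Closest to Ddit3 were Nifk (0.060), Ptges3 (0.066) and Cystm1 (0.086), and closest to Trib3 were Septin5 (0.064), Tspyl1 (0.064) and Lancl1 (0.067). None of these 9 genes belongs to the set of 10. Within the set, the nearest pair was Atf4 and Chac1 (0.13), followed by Cebpg and Trib3 (0.16) and Atf4 and Cebpg (0.17). Nupr1 and Sesn2 lay 0.35 apart, Ddit3 and Cebpb 0.42, and Atf3 was nearest to Ppp1r15a at 0.92. The 9 libraries share 3 treatments, so these distances mostly describe the differences between groups.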

How the data were processed

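RNA of 9 MC38 libraries was analysed from a single table that the authors deposited. Per the labels, polyadenylated RNA was selected with oligo(dT) after a column kit and sequenced as DNA nanoballs, while the paper gives TRIzol extraction and an Illumina Novaseq run. The submitters' processing notes list HISAT2 2.1.0, Bowtie2 2.3.4.3 and RSEM 1.3.1 and both a human and a mouse build (GRCh38.p13 and GRCm39). Which tool did what, the annotation and the use of strand are not given in the sources used here. For each gene and library the authors deposited an expected count (an estimated count without normalization), an FPKM and a TPM. The deposited signal values, the counts divided by a factor per library, were not used. Columns named CC were taken as Cu-Cys by its initials, and columns named CCGE as Cadict by its components.

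The rounded counts were fitted with edgeR 4.0.16 under R 4.3.3, using filterByExpr by group, TMM, and a quasi-likelihood fit of all 9 libraries with Benjamini-Hochberg adjustment over 11949 genes. Genes 2-fold or more apart with an adjusted p no greater than 0.001 were called, and "rose" or "fell" mean an adjusted p no greater than 0.05. The steps were tested on simulated data in which a small set of genes changed, equally in both directions. That simulation did not test the scaling where most genes differ, as in Cadict. CPM are counts relative to the TMM-scaled library total, and intervals and floors cover counting and replicate error of these libraries only. FPKM and TPM were tested with limma 3.58.1 on log2(value + 1), with 0.1 as an alternative pseudocount, and DESeq2 1.42.0 was a further alternative, beside other filters, scalings, a replicate block and leaving out each library. No replicate pair agreed within sampling noise. Cadict replicate 2 stood furthest apart, with a chi-square per degree of freedom of 14.7 against Cadict replicate 1 and 23.1 against replicate 3. The other pairs within groups ran from 1.88 to 4.53. The members and lists were chosen with earlier results of these data known. Named from each list were the 3 genes with the largest absolute change in Cadict against Ctrl among those that rose or fell with a mean of at least 10 CPM, and for Atf4, Ddit3 and Trib3 the 3 genes of nearest pattern. Genes named outside this rule were picked after their values were seen. Promoters came from RefSeq (GRCm38.p6), another build than that of the files, and transcripts from GENCODE M21. For 9 of the 10 genes, all but Trib3, the bases just after the RefSeq start occur near the beginning of a GENCODE transcript. Whether the 2 starts coincide exactly was not tested.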

Additional observations from a re-analysis of the deposited data

How the results depend on the processing

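The number of the 10 genes called was 6 for Cadict and 0 for Cu-Cys, each against Ctrl, and 6 between Cadict and Cu-Cys, the order kept here. By library totals, FPKM and TPM it was 5, 0 and 5, since Cebpb fell below 2-fold. Leaving out any 1 library left it at 6 to 6, 0 to 0 and 6 to 6, and the number of all genes called at 5592 to 5742, 143 to 229 and 4932 to 5058 (5707, 196 and 5041 with all libraries). Without a fold limit, at an adjusted p of 0.05, it was 10, 8 and 10 of the 10 genes and 10484, 5381 and 10263 of all genes, as a looser rule must give. For Cu-Cys the number of all genes called was 119 with at least 10 counts in every library, 71 with FPKM and 117 with TPM (pseudocount 1), and the cause was not tested.

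Directions turned with the scaling. In Cadict against Ctrl, by library totals, FPKM with pseudocount 1 and 0.1, and TPM with pseudocount 1 and 0.1 in that order, the log2 fold change was −0.28, −0.27, −0.27, −0.61 and −0.62 for Atf4, −0.21, −0.21, −0.21, −0.55 and −0.56 for Cebpg, −0.58, −0.57, −0.59, −0.92 and −0.93 for Trib3 and −0.53, −0.53, −0.54, −0.88 and −0.89 for Chac1. In Cadict against Cu-Cys it was −0.38, −0.38, −0.38, −0.65 and −0.65 for Atf4, −0.017, −0.019, −0.019, −0.29 and −0.29 for Cebpg, −0.17, −0.18, −0.18, −0.44 and −0.45 for Trib3 and −0.50, −0.50, −0.51, −0.77 and −0.78 for Chac1. In Cu-Cys against Ctrl, Chac1, which did not pass, was −0.034, −0.036, −0.037, −0.11 and −0.11, and ran from −0.027 without Ctrl replicate 1 to 0.077 without Ctrl replicate 3. Of the genes called in Cadict against Ctrl, 43.3% were higher by TMM, 48.3% by DESeq2 size factors, 11.9% by library totals, 11.0% by FPKM and 5.67% by TPM. Which scaling comes closest to RNA per cell was not tested.

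Replicate numbers did not pair the libraries (correlations of deviations −0.192 to 0.152 over 8551 genes). With a replicate block the calls among the 10 genes were 6, 0 and 6, and Cebpg in Cu-Cys no longer passed (adjusted p = 0.0683). Without Ctrl replicate 3, Cebpb in Cu-Cys passed (log2 0.42, adjusted p = 0.0353). The lowest counts among the 10 genes were the 150 to 197 of Sesn2 in Cu-Cys.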
